A study of Mus musculus with 9 samples.

Results

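The genes described here are 10 mouse heat shock proteins and chaperones: Hspa1a, Hspa1b, Hspa8, Hsp90aa1, Hsp90ab1, Hsph1, Dnajb1, Hspd1, Hspe1 and Bag3. They were taken by name, and all 10 were found among the 53801 genes of the count table. All 10 were also among the 12538 protein-coding genes with enough counts to be tested, so no member was lost to the filter on low counts.

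Heat shock proteins hold unfolded proteins, help them fold or pass them on for degradation. HSP70 proteins bind exposed stretches of a client in cycles of ATP hydrolysis that J-domain proteins start and nucleotide exchange factors end, while HSP90 works later, on clients such as kinases and steroid receptors. Under heat or other proteotoxic stress the transcription factor HSF1 binds heat shock elements, inverted repeats of the unit nGAAn, and raises the inducible members, and in cells taken from solid tissue by warm enzymatic digestion some of these genes and the immediate early genes are known to be raised by the procedure.

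Male C57BL/6J mice aged 10 to 12 weeks received GL261 tdTomato+luc+ glioma cells in the right striatum in all 4 groups, so the controls carried tumours as well. CTR mice were given saline by gavage. OAT-1746 mice were given the oral arginase 1 and 2 inhibitor OAT-1746 at 50 mg/kg by gavage 2 times a day from day 1. Anti-PD-1 mice were given intraperitoneal antibody on days 8, 10, 12 and 14 (2.5 mg/kg each), and COMB mice both agents. Tumour-bearing hemispheres were digested with papain, and CD11b+ cells were sorted and sequenced as bulk RNA, with 2 libraries for CTR, OAT-1746 and anti-PD-1 and 3 for COMB. Collection is given as day 28 in the methods and as day 21 in a figure legend. The label of anti-PD-1 replicate 2 names anti-PD-2 as the treatment, and that library was grouped by its title. The study calls its libraries biological replicates, but the labels do not say that each came from a separate animal, and p-values here measure only the spread between libraries.

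The libraries held 13048075 to 18796479 counts. OAT-1746 replicate 2 stood apart: its Pearson r on log2 CPM (counts scaled to library size) over the tested genes was 0.911 to 0.956 with the other 8 libraries, which had 0.960 to 0.989 among themselves. Values of the 10 genes without this library are given beside OAT-1746 against CTR and COMB against OAT-1746.

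The sort label was checked against marker genes, as sums of CPM scaled by the trimmed mean of M-values (TMM CPM). The 10 microglia markers summed to 13539 and 21600.1 in the CTR libraries, 28362 and 35504 in OAT-1746, 20204 and 16396 in anti-PD-1, and 24675, 18475 and 17357 in COMB, with all 10 above 0 everywhere. The 8 monocyte and macrophage markers, led on average by Tgfbi, summed to 7772 and 7422 in CTR, 5756 and 744 in OAT-1746, 6997 and 8679.7 in anti-PD-1, and 5403, 8618 and 8779.8 in COMB. Microglia markers summed far above those of T, B, NK, neuron, oligodendrocyte, astrocyte, endothelial and erythroid cells in every library. Monocyte and macrophage markers did so except in OAT-1746 replicate 2, where they summed to 744 against 258 for oligodendrocyte markers. The libraries differed in their make-up: OAT-1746 replicate 2 had the highest microglial sum and the lowest monocyte sum of all 9. T cell markers summed to 9.94 to 26.0 and B cell markers to 10.5 to 25.8, with Cd4 and Cd79b the most abundant. The 4 neuron markers reached 3.10 to 9.90 and the 5 erythroid markers 0.845 to 30.7, with Cd3e, Cd3d and Cd3g at 0 in CTR replicate 2, Cd3e, Cd8b1 and Trac in OAT-1746 replicate 1, and Cd79a and Ms4a1 in OAT-1746 replicate 2. In bulk RNA, fewer cells of a type and less RNA per cell cannot be told apart.

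Promoter windows of 300 bases, 250 before to 50 after an annotated start, were available from RefSeq (GRCm38.p6) for 7 of the 10 genes, in 10 windows, with no entry for Hspa8, Hsp90aa1 and Hsp90ab1. They were searched for GAANNTTC and TTCNNGAA, 2 neighbouring heat shock units facing each other, which read the same on both strands and overlap where units follow in a row. Of all 32851 windows 15.1% held at least 1 of them and 0.603% held 3 units in a row. Counted by gene rather than by window, 6 of the 7 genes had a match and 3 had 3 units in a row. These are not separate sites throughout, since Hspd1 and Hspe1 share theirs and the windows of Hspa1a and Hspa1b are nearly identical. A match describes letters in the window and is not a measured binding site.

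Hspa1a and Hspa1b, the stress-inducible HSP70 genes, lie side by side on chromosome 17. Their windows, chr17:34972107-34972406 and chr17:34959189-34959488, both on the minus strand, are shown whole because the genes moved together and their reads are hard to tell apart; capitals mark the match, at bases -104 to -97 in both.
Hspa1a: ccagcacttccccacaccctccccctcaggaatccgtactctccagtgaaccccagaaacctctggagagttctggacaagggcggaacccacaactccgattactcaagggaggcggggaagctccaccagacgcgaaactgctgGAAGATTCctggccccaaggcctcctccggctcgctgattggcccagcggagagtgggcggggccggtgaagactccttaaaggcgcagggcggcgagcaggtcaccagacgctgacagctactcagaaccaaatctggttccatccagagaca
Hspa1b: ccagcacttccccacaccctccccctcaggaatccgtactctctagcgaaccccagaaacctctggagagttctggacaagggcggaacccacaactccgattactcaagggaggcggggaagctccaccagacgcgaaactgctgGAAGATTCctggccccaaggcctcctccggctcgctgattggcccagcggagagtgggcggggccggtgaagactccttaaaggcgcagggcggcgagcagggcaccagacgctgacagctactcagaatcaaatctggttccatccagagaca
The windows were identical at 296 of 300 bases (98.7%), with the substitutions C44T, T47C, T249G and C276T from Hspa1a to Hspa1b, counted from the 5′ end. The likeness runs through the transcripts: of the 100-base stretches of Hspa1a 56.5% occurred in another gene, of Hspa1b 49.9%, most of them in each other. The authors counted reads with a mapping quality of at least 10, so the counts of either gene are uncertain.

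Further stretches are shown because they hold the other matches, with 20 bases on either side where the window allows. Hspd1 and Hspe1, which encode the mitochondrial chaperonin and its lid, are transcribed away from each other, and their matches are the same place on chr1:55088039-55088096 read from opposite strands. The stretch holds 3 overlapping matches, at -144 to -127 from the second start of Hspd1 and at -89 to -72 from the start of Hspe1, while the window of the first Hspd1 start held none. In Hsph1, chr5:149636287-149636389 on the minus strand, matches lay at -33 to -26, 36 to 43 and 41 to 48, and in Bag3, chr7:128523605-128523632 on the plus strand, at 42 to 49. Capitals mark the matches.
Hspd1: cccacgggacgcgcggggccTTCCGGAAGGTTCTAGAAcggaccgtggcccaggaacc
Hspe1: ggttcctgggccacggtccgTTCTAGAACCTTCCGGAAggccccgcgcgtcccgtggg
Hsph1: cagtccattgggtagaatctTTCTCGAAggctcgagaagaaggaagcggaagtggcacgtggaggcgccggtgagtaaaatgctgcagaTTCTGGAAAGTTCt
Bag3: aagttctctggatgggaccaGAAGTTTC
Neither of the 2 Dnajb1 windows held a match, which says only that these letters are not in those windows. The genes with a match include 3 that were lowest in COMB (Hspa1a, Hspa1b, Bag3 by group mean) and 3 that were lowest in OAT-1746 (Hsph1, Hspd1, Hspe1).

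**Figure D1:**
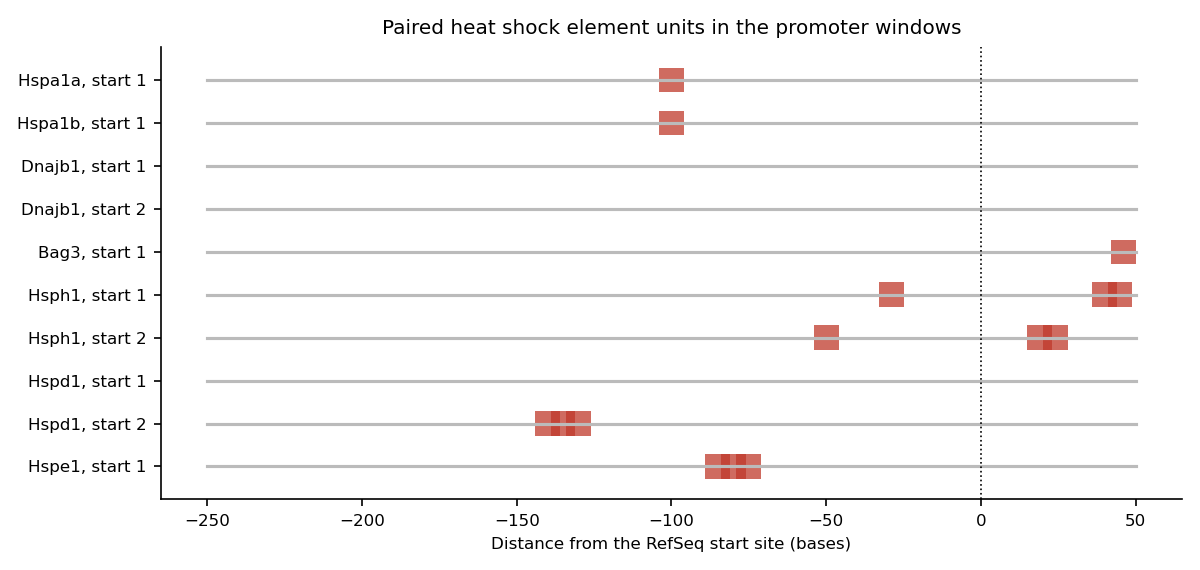
Positions of GAANNTTC and TTCNNGAA relative to the annotated start in the promoter windows of the 7 genes with an entry. Each line is 1 window from 250 bases before to 50 bases after the start, and each mark is 1 match.

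Per kilobase of exon, averaged over the 9 libraries, the constitutive cytosolic HSP70 gene Hspa8 had the highest level, 520 CPM per kilobase (315 to 727 over libraries), followed by the constitutive HSP90 gene Hsp90ab1 at 491 (327 to 786). The ranges of these genes overlapped almost fully. The inducible HSP90 gene Hsp90aa1 came next at 75.3 (56.1 to 127), wholly below Hsp90ab1. Then came Hspe1 at 54.7 (25.9 to 77.3), Hspd1 at 47.5 (25.9 to 70.4) and Dnajb1 at 38.4 (21.4 to 87.8), each overlapping its neighbours. Bag3 stood at 18.4 (12.7 to 30.9), Hspa1a at 11.2 (1.82 to 45.2), Hsph1 at 10.2 (5.14 to 22.2) and Hspa1b at 9.67 (0.231 to 43.6). Neighbours in the lower part of the order did not differ beyond their spread, and as highest over lowest library Hspa1a and Hspa1b had the widest ranges.

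All values that follow are TMM CPM, with replicates in order. Hspa1a, stress-inducible HSP70, had 24.9 and 8.23 in CTR, 20.7 and 134 in OAT-1746, 33.7 and 60.1 in anti-PD-1, and 5.41, 6.34 and 6.73 in COMB. All 3 COMB libraries lay below every other library, while OAT-1746 replicate 1 lay within the CTR range and OAT-1746 replicate 2 was the highest of all. Hspa1b, its neighbour, had 20.6 and 0.647 in CTR, 7.97 and 122 in OAT-1746, 30.9 and 45.6 in anti-PD-1, and 4.15, 4.75 and 7.09 in COMB. The pattern followed Hspa1a except in CTR replicate 2, which held 11 Hspa1b counts against 140 of Hspa1a and lay below the COMB range.

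Dnajb1, the J-domain protein that hands clients to HSP70, had 99.8 and 74.4 in CTR, 158 and 281 in OAT-1746, 118 and 119.8 in anti-PD-1, and 68.5, 96.5 and 90.2 in COMB. The OAT-1746 libraries were the 2 highest, the anti-PD-1 libraries lay close together between them and CTR, and COMB overlapped CTR. Bag3, a nucleotide exchange factor that links HSP70 to selective autophagy, had 47.5 and 38.1 in CTR, 57.2 and 79.1 in OAT-1746, 53.5 and 46.8 in anti-PD-1, and 32.9, 32.6 and 35.6 in COMB. COMB was below every other library and OAT-1746 above, with anti-PD-1 and CTR overlapping. In Dnajb1 and Bag3, unlike Hspa1a, OAT-1746 replicate 1 was also above both CTR libraries.

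Hsph1, an HSP110 protein that exchanges nucleotide on HSP70, had 134 and 52.5 in CTR, 52.1 and 37.4 in OAT-1746, 89.2 and 162 in anti-PD-1, and 47.1, 43.6 and 49.9 in COMB. Here OAT-1746 was low together with COMB, and CTR replicate 1 and the anti-PD-1 libraries were high. Hspa8, the HSP70 of unstressed cells, had 2910.0 and 2019.6 in CTR, 1935 and 1356 in OAT-1746, 2152 and 3128 in anti-PD-1, and 1968, 2355 and 2301 in COMB. OAT-1746 lay below all other libraries, and the other 3 groups overlapped.

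Hsp90aa1, the inducible HSP90, had 343 and 265 in CTR, 288 and 221 in OAT-1746, 257 and 499 in anti-PD-1, and 253, 259 and 279 in COMB. Anti-PD-1 replicate 2 was the highest and all groups overlapped. Hsp90ab1, the constitutive HSP90, had 1809.7 and 1621 in CTR, 1551 and 980.2 in OAT-1746, 1033 and 2358 in anti-PD-1, and 1206, 1287 and 1419 in COMB. CTR was above OAT-1746 and COMB, while the anti-PD-1 libraries spanned the whole range of the other groups but for the single lowest library.

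Hspd1, the 60-kDa mitochondrial chaperonin, had 178 and 117 in CTR, 96.5 and 68.3 in OAT-1746, 111 and 186 in anti-PD-1, and 124, 117 and 133 in COMB. Its OAT-1746 libraries were the 2 lowest. Hspe1, the lid of that chaperonin, had 114 and 92.7 in CTR, 69.8 and 38.2 in OAT-1746, 64.0 and 98.8 in anti-PD-1, and 67.6, 101 and 79.4 in COMB. OAT-1746 was below CTR and overlapped the other 2 groups.

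**Figure D2:**
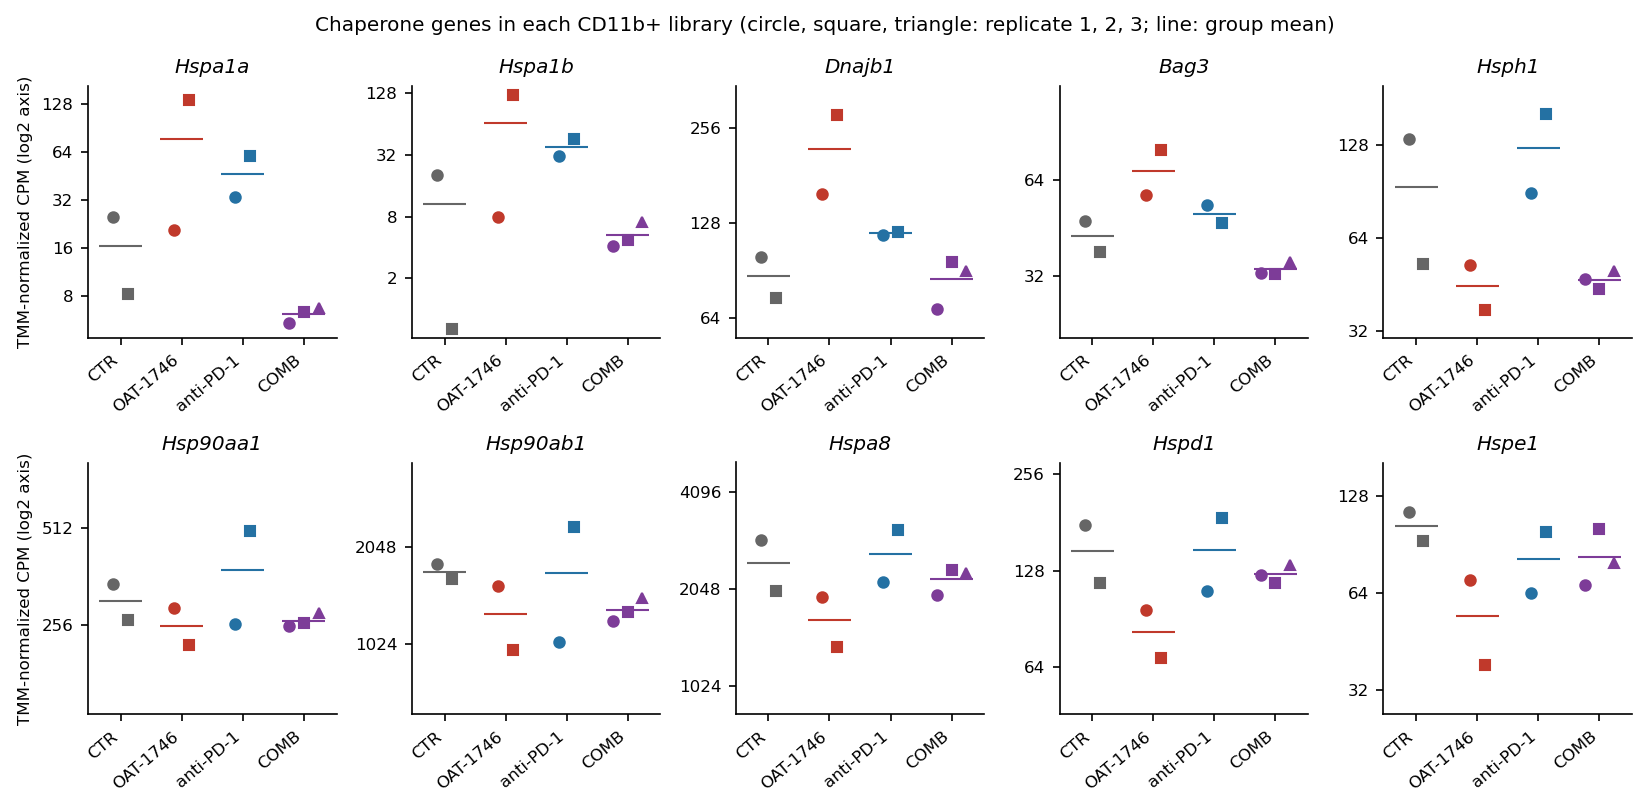
TMM CPM of the 10 genes in each of the 9 libraries, on a log scale, 1 panel per gene. Points are libraries, coloured by group; OAT-1746 replicate 2 is at the top for Hspa1a, Hspa1b, Dnajb1 and Bag3 and at the bottom for Hspa8, Hsp90aa1, Hsp90ab1, Hsph1, Hspd1 and Hspe1.

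In CTR, OAT-1746 and anti-PD-1 the replicates differed more in these genes than in the median tested gene, and in COMB less. The median range between replicates (log2, highest over lowest) was 0.47 for the members against 0.24 for all tested genes in CTR, 0.59 against 0.34 in OAT-1746 and 0.69 against 0.25 in anti-PD-1, and 0.25 against 0.39 in COMB. Hspa1b differed 31.8-fold between the CTR replicates and 15.3-fold between the OAT-1746 replicates, and Hspa1a 6.48-fold between the latter. Summed over the 10 genes, the CTR libraries had 5681 and 4289 CPM, OAT-1746 4236 and 3317, anti-PD-1 3941 and 6703, and COMB 3777, 4302 and 4401, of which Hspa8 and Hsp90ab1 made up most.

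Between OAT-1746 and CTR, the fitted levels of Hspa1a, Hspa1b, Dnajb1 and Bag3 were higher in OAT-1746 and those of the other 6 members lower, and none passed the test. Mean levels of Hspa1a were 77.5 ± 80.3 CPM in OAT-1746 (mean ± SD, n = 2) and 16.6 ± 11.8 in CTR (n = 2), of Dnajb1 220 ± 86.8 and 87.1 ± 17.9, and of Bag3 68.1 ± 15.5 and 42.8 ± 6.69. Hspa8, Hsp90ab1, Hsph1, Hspd1 and Hspe1 had OAT-1746 values entirely under the CTR values, and Dnajb1 and Bag3 entirely over them. That makes 7 of 10 genes without overlap, in a comparison where 62.9% of all tested genes did not overlap. Log2 fold changes were 2.22 for Hspa1a, 2.62 for Hspa1b, 1.34 for Dnajb1 and 0.67 for Bag3. They were -1.06 for Hsph1, -0.94 for Hspe1, -0.84 for Hspd1, -0.58 for Hspa8, -0.44 for Hsp90ab1 and -0.26 for Hsp90aa1, with a median over the members of -0.35 against 0.01 over all genes.

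With a threshold of 0.05 on p-values of edgeR's quasi-likelihood test after Benjamini-Hochberg adjustment over 12538 genes, 0 of 10 members and 0% of all genes passed in OAT-1746 against CTR; the smallest adjusted p among members was 0.061, for Dnajb1. At an unadjusted p under 0.05 edgeR gave 6 members and 32.3% of all genes, and DESeq2, after adjustment, called Dnajb1, Hspd1, Hspe1 and Bag3 and 15.7% of all genes. Leaving out COMB replicate 1 gave 1 called member, and the range of counts of all genes over the libraries left out is given further below. Leaving out OAT-1746 replicate 1 leaves replicate 2 as the only library of its group, and leaving out replicate 2 leaves only replicate 1. Without replicate 2 the log2 fold change of Hspa1a was 0.33, of Dnajb1 0.88 and of Bag3 0.43, and that of Hspa1b turned to -0.40. Of the 6 lower members Hsph1 was then at -0.83, Hspd1 at -0.60, Hspe1 at -0.55, Hspa8 at -0.34, Hsp90ab1 at -0.13 and Hsp90aa1 at -0.07. Hsph1 was at -0.22 without CTR replicate 1 and at -1.596 without CTR replicate 2, and the member median at -0.14 without CTR replicate 1, -0.24 without OAT-1746 replicate 2 and -0.64 without OAT-1746 replicate 1.

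Between anti-PD-1 and CTR, Hspa1a, Hspa1b and Dnajb1 were higher in both anti-PD-1 libraries than in both CTR libraries, 3 of 10 genes where 37.6% of all genes did not overlap. Hspa1a had 46.9 ± 18.7 CPM in anti-PD-1 (n = 2), a log2 fold change of 1.501, and Hspa1b 1.85, while the other members lay between -0.34 (Hspe1) and 0.45 (Dnajb1). By edgeR's quasi-likelihood test with Benjamini-Hochberg adjustment 0 members passed and 0% of all genes; before adjustment 0 members and 5.12% of genes were under 0.05, and by DESeq2 0 members and 14 genes passed. The median was 0.27 over the members and 0.02 over all genes. Without CTR replicate 1 Hspa1a was at 2.502 and Hspa1b at 5.86, and without CTR replicate 2 at 0.91 and 0.89. The member median was 0.45 without CTR replicate 1, -0.01 without CTR replicate 2, 0.46 without anti-PD-1 replicate 1 and -0.14 without anti-PD-1 replicate 2.

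Between COMB and CTR all 10 members had a lower fitted level in COMB. Hsph1 had 46.9 ± 3.15 CPM in COMB (n = 3) and 93.4 ± 57.9 in CTR (n = 2), a log2 fold change of -0.995, Hspa1a -1.43 and Hspa1b -0.99, and the other 7 lay between -0.40 (Hsp90ab1) and -0.03 (Dnajb1). Hspa1a, Hsp90ab1, Hsph1 and Bag3 did not overlap, 4 of 10 where 27.9% of all genes did not. EdgeR's quasi-likelihood test with Benjamini-Hochberg adjustment called 0 members and 0% of all genes, without adjustment 1 member (Hsph1) and 6.58% of genes were under 0.05, and DESeq2 gave 0 members and 35 genes. The member median was -0.33 against -0.00 over all genes; with limma voom the values for Hspa1b and Dnajb1 turned to 0.79 and 0.05. Without CTR replicate 1 Hspa1b, Hspa8, Hsp90aa1, Dnajb1 and Hspd1 turned higher in COMB (Hspa1b to 3.05), the member median was -0.06, Hsph1 was at -0.14 and Hspa1a at -0.39. Without CTR replicate 2 the median was -0.49 and Hsph1, Hspa1a and Hspa1b were at -1.52, -2.02 and -1.95.

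Between COMB and anti-PD-1, Hspa1a, Hspa1b, Hsph1, Dnajb1 and Bag3 were lower in all 3 COMB libraries than in both anti-PD-1 libraries, 5 of 10 where 26.4% of all genes did not overlap. Log2 fold changes were -2.93 for Hspa1a, -2.84 for Hspa1b, -1.42 for Hsph1, -0.57 for Bag3 and -0.48 for Dnajb1, and the other members lay between -0.52 (Hsp90aa1) and 0.02 (Hspe1). By edgeR's quasi-likelihood test with Benjamini-Hochberg adjustment 0 members and 0% of genes passed, 4 members and 7.23% of genes were under 0.05 before adjustment, and 0 members and 47 genes passed by DESeq2. Hspa1a passed without OAT-1746 replicate 1 (log2 fold change -2.93, adjusted p = 0.0263) and without OAT-1746 replicate 2 (-2.90, adjusted p = 0.0292) by edgeR's quasi-likelihood test with Benjamini-Hochberg adjustment. Neither library is in the comparison, and the cause was not tested. With only the anti-PD-1 and COMB libraries in the fit, Hspa1a (-2.91) and Hspa1b (-2.83) both passed (adjusted p = 0.0363 each by edgeR's quasi-likelihood test with Benjamini-Hochberg adjustment), the only 2 genes that did. The member median was -0.50 against -0.01 over all genes, -0.72 without anti-PD-1 replicate 1 and -0.21 without anti-PD-1 replicate 2.

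Between COMB and OAT-1746 3 of the 10 members passed the test, all lower in COMB, where 15.8% of all genes passed. Without OAT-1746 replicate 2 the log2 fold changes of these 3 were smaller, -1.73 for Hspa1a, -0.89 for Dnajb1 and -0.75 for Bag3. Hspa1a fell from 77.5 ± 80.3 CPM (n = 2) to 6.16 ± 0.677 (n = 3), 12.6-fold in the fit, Dnajb1 from 220 ± 86.8 to 85.1 ± 14.7, 2.58-fold, and Bag3 from 68.1 ± 15.5 to 33.7 ± 1.66, 2.02-fold, each lower in all 3 COMB libraries than in both OAT-1746 libraries. Hspa1b, 65.1 ± 80.8 in OAT-1746 and 5.33 ± 1.55 in COMB, had the same direction and did not overlap, but did not pass the test. Hspa8 and Hspd1 were higher in all COMB libraries than in both OAT-1746 libraries. These 6 genes without overlap stand beside 54% of all genes.

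In edgeR's quasi-likelihood test with Benjamini-Hochberg adjustment the log2 fold change was -3.65 ± 0.71 for Hspa1a (value ± SE, adjusted p = 0.0239), -1.37 ± 0.25 for Dnajb1 (adjusted p = 0.0211) and -1.02 ± 0.17 for Bag3 (adjusted p = 0.0192), and -3.61 ± 1.16 for Hspa1b (adjusted p = 0.0623). Thus 3 of 10 members passed, all lower, where 15.8% of all genes passed, 8.94% lower and 6.84% higher; DESeq2 called 4 members, Hspa1b included, and 24.4% of all genes. With the counts of Hspa1a and Hspa1b summed, as an alternative chosen after seeing the data, the log2 fold change was -3.63 ± 0.85 (adjusted p = 0.0315, edgeR's quasi-likelihood test with Benjamini-Hochberg adjustment). The other members were at 0.62 for Hspe1, 0.60 for Hspd1, 0.42 for Hspa8, 0.07 for Hsph1, 0.05 for Hsp90aa1 and 0.04 for Hsp90ab1, and the median over all 10 was 0.05 against 0.00 over all genes, -0.19 without OAT-1746 replicate 2 and 0.296 without OAT-1746 replicate 1.

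These calls rested on few libraries. Without OAT-1746 replicate 2 the log2 fold change was -1.73 for Hspa1a (adjusted p = 0.158), -0.89 for Dnajb1 (0.13) and -0.75 for Bag3 (0.13) by edgeR's quasi-likelihood test with Benjamini-Hochberg adjustment, and -0.57 for Hspa1b, so that 0 members passed. Of the other members Hspd1 was then at 0.38, Hspe1 at 0.26 and Hspa8 at 0.20, and Hsp90ab1, Hsph1 and Hsp90aa1 turned to -0.24, -0.14 and -0.11. Without OAT-1746 replicate 1, which leaves 1 library in its group, Hspa1b was at -4.51 and Hspe1 at 1.12. Without COMB replicate 2 the adjusted p was 0.103, 0.0876 and 0.0876 for Hspa1a, Dnajb1 and Bag3, without COMB replicate 3 it was 0.112, 0.107 and 0.107, and with a replicate block 0.217 for each. With only the OAT-1746 and COMB libraries in the fit it was 0.077, 0.077 and 0.0674, by the same edgeR quasi-likelihood test with Benjamini-Hochberg adjustment.

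The interaction, that is whether the change from OAT-1746 to COMB differed from the change from CTR to anti-PD-1, was negative for these 4 genes: -5.15 for Hspa1a, -5.46 for Hspa1b, -1.82 for Dnajb1 and -1.24 for Bag3. For Hspe1 it was 0.96 and for Hspd1 0.59. EdgeR's quasi-likelihood test with Benjamini-Hochberg adjustment called 0 members and 0.359% of all genes, with adjusted p = 0.0736, 0.117, 0.0753 and 0.0753 for the first 4 genes. At an unadjusted p under 0.05 there were 4 members and 26.2% of genes, and DESeq2 called Hspa1a, Dnajb1 and Bag3 and 8.4% of all genes. Without OAT-1746 replicate 1, 5 members and 2734 genes passed in edgeR. Without OAT-1746 replicate 2 the values were -3.23 for Hspa1a, -2.41 for Hspa1b, -1.33 for Dnajb1 and -0.98 for Bag3 (adjusted p = 0.112, 0.375, 0.137 and 0.158 by edgeR's quasi-likelihood test with Benjamini-Hochberg adjustment), and 0 members and 26 genes passed; without CTR replicate 1 Hspa1b was at -9.46. For any difference among the 4 groups edgeR called 0 members and 0.191% of genes, with the smallest adjusted p among members 0.0791 (quasi-likelihood test, Benjamini-Hochberg adjustment); 5 members and 27.7% of genes were under 0.05 before adjustment, DESeq2 called Hspa1a, Hsph1, Dnajb1 and Bag3 among 2137 genes, and edgeR called 5 members among 2381 genes without OAT-1746 replicate 1 and 0 among 12 without OAT-1746 replicate 2.

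**Figure D3:**
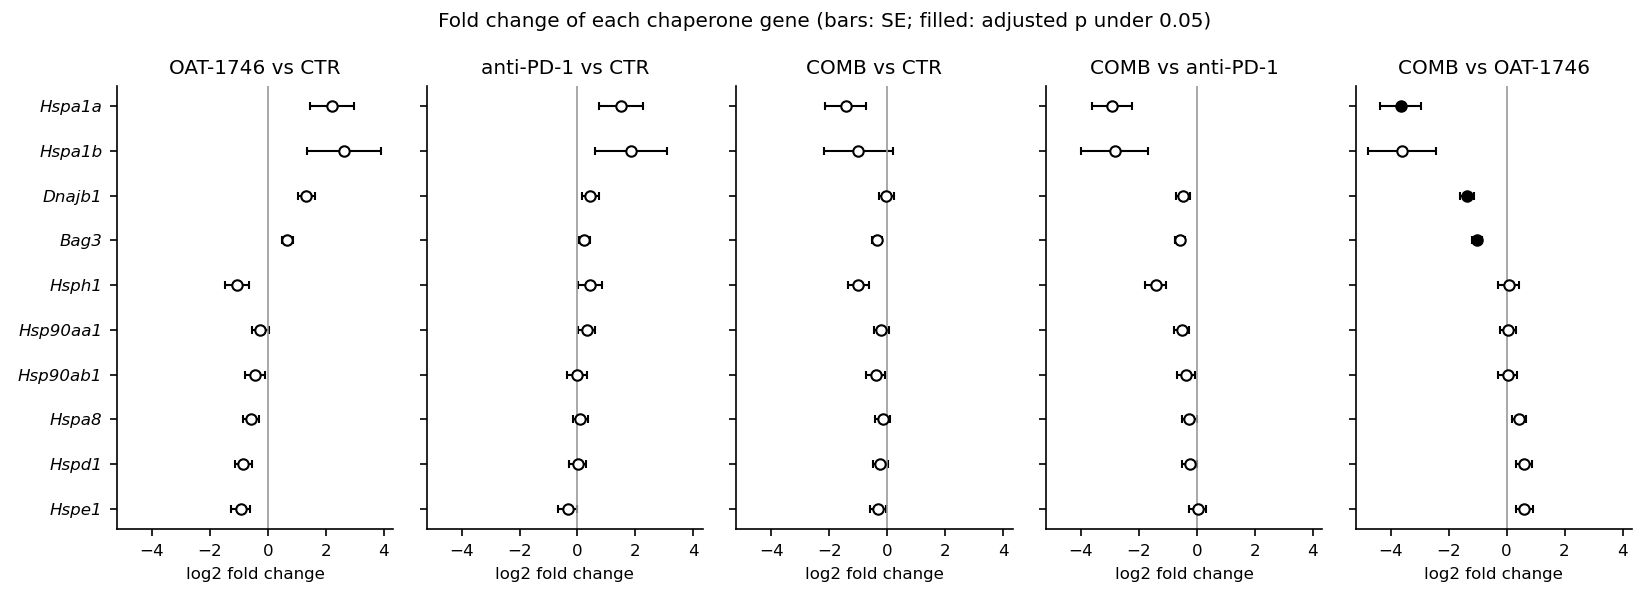
Log2 fold change of each gene in 5 comparisons from the edgeR fit, with bars that show the SE. Filled points passed at an adjusted p under 0.05 and open points did not; the filled points are Hspa1a, Dnajb1 and Bag3 in COMB against OAT-1746.

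The rest of the chaperone network was followed in lists of genes, whose counts in COMB against OAT-1746 stand beside the 15.8% of all genes that passed there. In these lists and the marker lists below, a gene said to rise or fall in that comparison is one that passed. Of the heat shock factors and their binder, 6 genes were in the table and 3 were tested: Hsf1, the main stress-responsive factor, Hsf2 and Hsbp1, which binds HSF1. Hsf1 had 29.1 and 28.8 CPM in CTR, 31.8 and 33.5 in OAT-1746, 26.4 and 32.4 in anti-PD-1, and 24.4, 23.1 and 24.3 in COMB. The RNA of Hsf1 thus stayed within a narrow band, with COMB lowest (COMB against OAT-1746 log2 fold change -0.45, adjusted p = 0.0553 by edgeR's quasi-likelihood test with Benjamini-Hochberg adjustment). Hsf2 had a log2 fold change of -0.43 and Hsbp1 of 0.19 in that comparison, and 0 of the 3 passed; Hsf3 and Hsf5 had 0 counts in every library.

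Of 18 other HSF1-inducible chaperone genes 1 passed in COMB against OAT-1746, in the same direction as Dnajb1: Dnajb4, another J-domain partner of HSP70. Dnajb4 had 11.9 and 14.8 CPM in CTR, 38.9 and 61.7 in OAT-1746, 17.0 and 20.3 in anti-PD-1, and 12.4, 13.5 and 11.1 in COMB. The OAT-1746 libraries were the 2 highest by a wide margin, and COMB overlapped CTR. It fell by a log2 fold change of -2.03 ± 0.22 (adjusted p = 0.0062), its interaction was -2.51 (adjusted p = 0.0304), and it differed among the 4 groups (adjusted p = 0.0286), by edgeR's quasi-likelihood test with Benjamini-Hochberg adjustment. Without OAT-1746 replicate 2 it still passed, with -1.64 (adjusted p = 0.0137) and an interaction of -2.12 (adjusted p = 0.0233) in the same edgeR quasi-likelihood test with Benjamini-Hochberg adjustment. The list as a whole had a median of 0.24 in COMB against OAT-1746 and of -0.26 in OAT-1746 against CTR; its most abundant genes Hspa4, Stip1 and Fkbp4 were at 0.24, 0.08 and 0.21 in the former.

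Of 18 co-chaperones of HSP90 and HSP70, 3 passed in COMB against OAT-1746, a share close to the 15.8% of all genes, 2 higher and 1 lower: Bag1, an HSP70 nucleotide exchange factor, by 0.96 ± 0.25, Sugt1, an HSP90 partner, by 0.65 ± 0.17, and Ttc4 by -0.71 ± 0.13. The list median was 0.20, and its most abundant genes Bag6, St13 and Cdc37 were at 0.08, -0.08 and 0.24. Of 20 further J-domain proteins Dnajc10 (0.47 ± 0.13), Dnajc21 (0.73 ± 0.20) and Dnajc15 (1.01 ± 0.29) rose and Dnajb5 (-0.96 ± 0.16) fell, 4 genes, again near the share of all genes, with a median of 0.08. The abundant Dnajc5, Dnaja2 and Dnajc13 were at 0.07, 0.25 and -0.23.

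CCT, the cytosolic chaperonin that folds actin and tubulin, and prefoldin, which delivers clients to it, had 14 genes in the table and 13 tested, and went together. Summed, they had 2267 and 2118 CPM in CTR, 1629 and 1178 in OAT-1746, 1850.5 and 2274 in anti-PD-1, and 1877, 2452 and 2263 in COMB. The OAT-1746 libraries were the 2 lowest, as for Hspd1. All 13 tested genes were lower in OAT-1746 than in CTR (median -0.68, 0 passed) and all 13 higher in COMB than in OAT-1746 (median 0.68), where Pfdn1 (1.19 ± 0.21), Pfdn4 (1.08 ± 0.17), Cct4 (0.84 ± 0.20) and Cct5 (0.76 ± 0.22) rose and Cct2, the most abundant, was at 0.57.

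Of 11 mitochondrial chaperones and proteases Grpel1, the exchange factor of mitochondrial HSP70, rose by 0.83 ± 0.24 and Afg3l2 by 0.45 ± 0.13, with a median of 0.36, and the abundant Hspa9, Yme1l1 and Trap1 were at 0.44, 0.04 and 0.13. Of 14 ER chaperones Dnajb9, a J-domain cofactor of BiP, fell by a log2 fold change of -0.80 ± 0.16, with a median of 0.12, and Calr, Hspa5 and Pdia3 were at 0.07, 0.05 and 0.21. Without OAT-1746 replicate 2, as an alternative chosen after seeing the data, Dnajb4 was the only gene of these 7 lists that passed in COMB against OAT-1746, when 26 of 12837 genes passed as lower and 1 as higher. All 13 CCT and prefoldin genes were then still higher (median 0.42), and 10 of 11 genes of the mitochondrial list were higher (median 0.26), against 9 of 11 with that library. The medians without it were 0.17 for the other HSF1-inducible genes, 0.11 for the co-chaperones, 0.05 for the J-domain proteins and -0.01 for the ER list, where 7 of 14 were lower. In OAT-1746 against CTR 0 genes of these lists passed in edgeR; list medians were 0.17 for the factors, -0.30 for the co-chaperones, -0.29 for the J-domain proteins, -0.27 for the mitochondrial list and -0.27 for the ER list.

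Immediate early genes, among the first transcribed after a stimulus and known to be raised by enzymatic digestion of tissue, were in sum highest in OAT-1746 and lowest in COMB, as Hspa1a, Hspa1b, Dnajb1 and Bag3 were by group mean. The 26 genes, led on average by Rhob, were all above 0 in every library and summed to 17345 and 16808 CPM in CTR, 25679.5 and 36542 in OAT-1746, 17341 and 22034 in anti-PD-1, and 10720.0, 12104 and 11989 in COMB. Both OAT-1746 libraries were above all others and all 3 COMB libraries below, the order seen for Bag3. Egr1 had 767 and 851 CPM in CTR, 2591 and 3730 in OAT-1746, 655 and 1117 in anti-PD-1, and 224, 231 and 256 in COMB. Atf3, a stress-induced factor of the CREB family, had 367 and 256 in CTR, 501 and 1093 in OAT-1746, 419 and 616 in anti-PD-1, and 188, 159 and 188 in COMB. In these 2 genes COMB was below every other library and OAT-1746 replicate 2 the highest.

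In COMB against OAT-1746 25 of the 26 were lower and 1 higher, with a list median of -1.45 against 0.00 over all genes. Of the 26, 22 passed, all lower in COMB. Those with the largest falls were Fosb (-3.998 ± 0.64), Egr1 (-3.74 ± 0.26), Egr3 (-3.06 ± 0.50), Nfkbiz (-3.02 ± 0.26), Egr2 (-2.94 ± 0.59), Nr4a1 (-2.56 ± 0.41) and Klf4 (-2.53 ± 0.48). Jun (-2.29 ± 0.23), Atf3 (-2.16 ± 0.32), Klf2 (-1.76 ± 0.34), Ier2 (-1.67 ± 0.15), Fos (-1.57 ± 0.27), Btg2 (-1.55 ± 0.22), Ier5 (-1.35 ± 0.18) and Zfp36 (-1.26 ± 0.18) followed. Junb (-1.25 ± 0.22), Klf6 (-1.25 ± 0.23), Jund (-1.07 ± 0.19), Rhob (-1.001 ± 0.20), Nfkbia (-0.81 ± 0.18), Cebpd (-0.69 ± 0.13) and Gadd45b (-0.67 ± 0.18) made up the rest. In OAT-1746 against CTR 23 of 26 were higher (median 0.95, 0 passed in edgeR), and in COMB against CTR the median was -0.80. The interaction was called for 7, all negative: Egr1, Nfkbiz, Jun, Ier2, Jund, Ier5 and Atf3. Without OAT-1746 replicate 2, 25 of the 26 were still lower in COMB than in OAT-1746 (median -1.20), 4 of them passing, and 8 had a negative interaction that passed. The part of tissue digestion in the values of Hspa1a, Dnajb1 and Bag3 was not tested.

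**Figure D4:**
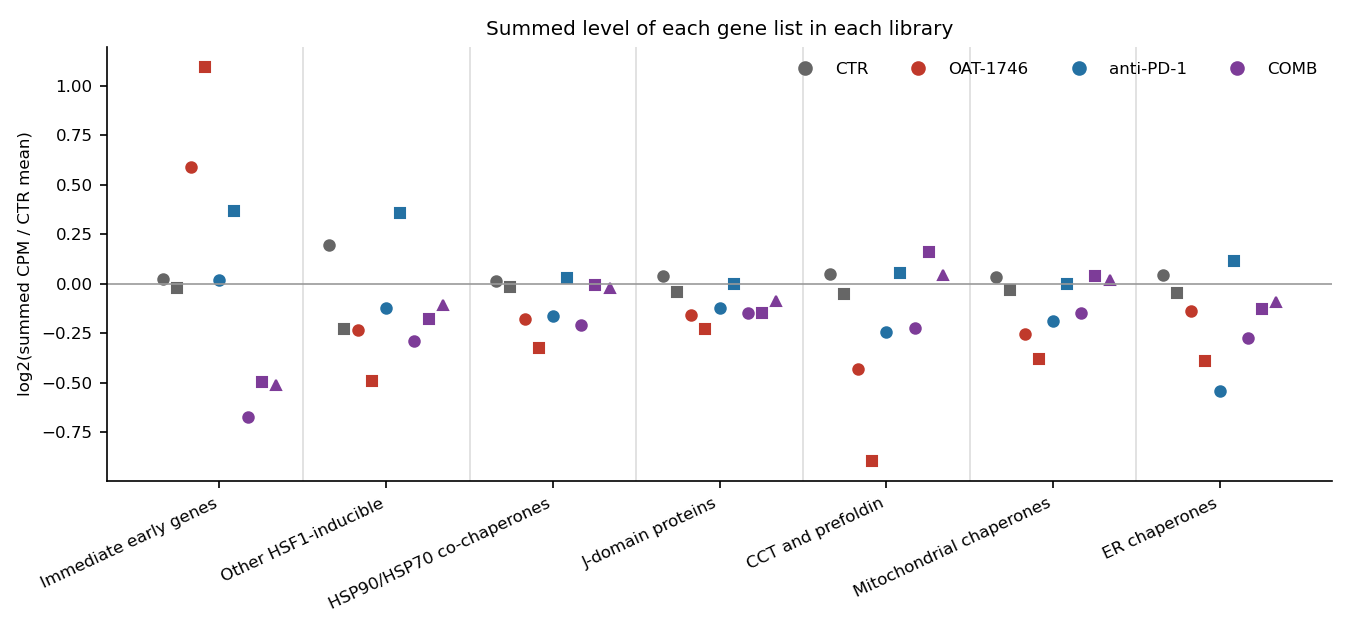
Log2 of the summed TMM CPM of a gene list over its CTR mean, in each of the 9 libraries, coloured by group. Shown are immediate early genes, other HSF1-inducible genes, co-chaperones, J-domain proteins, CCT and prefoldin, mitochondrial chaperones and proteases, and ER chaperones. Immediate early genes were highest in OAT-1746 and lowest in COMB, and CCT with prefoldin was lowest in OAT-1746.

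Marker lists of cell types and states were followed in the same libraries. Their counts in COMB against OAT-1746 also stand beside the 15.8% of all genes that passed there. Of 10 microglia markers Sall1 (-1.06 ± 0.25) and P2ry12 (-1.07 ± 0.28) fell in COMB against OAT-1746, with a median of -0.71, and all 10 had higher fitted levels under OAT-1746 (median 0.93 against CTR, 0 passed in edgeR); Cx3cr1 and Tmem119 were at -0.75 and -0.60 in COMB against OAT-1746. Of 8 monocyte and macrophage markers 0 passed, with a median of 0.63, and Tgfbi, Ifitm3 and Plac8 were at 1.77, 0.83 and 0.65; without OAT-1746 replicate 2 the median turned to -0.14, with 5 of 8 lower. Border-associated macrophage markers (6 of 6 above 0 everywhere, Mrc1 most abundant) summed to 442 to 610.4 CPM, and 0 passed with a median of -0.41, and -0.32 without OAT-1746 replicate 2.

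Cytosolic ribosomal protein genes, 80 of 83 tested and led by Rplp0, summed to 56210.3 and 50893 CPM in CTR, 36669.5 and 26940.0 in OAT-1746, 50887 and 46330.5 in anti-PD-1, and 46234, 64208 and 55049.5 in COMB. In COMB against OAT-1746 all 80 were higher, with a median of 0.82, and 58 passed. Among the 58 were Rplp0 (0.87 ± 0.23), Rps9 (0.82 ± 0.19) and Rplp1 (0.70 ± 0.19). Without OAT-1746 replicate 2 all 80 were still higher (median 0.63). In OAT-1746 against CTR 79 of the 80 were lower, with a median of -0.77 and 0 passed. Mitochondrially encoded genes, 7 of 13 tested, summed to 12668 and 10114 CPM in CTR, 22425 and 19604 in OAT-1746, 5536 and 13593 in anti-PD-1, and 12921, 6393 and 7649 in COMB. mt-Nd1 (-1.37 ± 0.23), mt-Nd2 (-1.53 ± 0.27) and mt-Nd5 (-1.52 ± 0.41) fell in COMB against OAT-1746, mt-Co1 and mt-Cytb were at -0.93 and -1.25, and mt-Atp6, mt-Atp8, mt-Co2, mt-Co3 and mt-Nd4l had 0 counts in every library.

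NK cell markers, 8 of 8 above 0 everywhere and led on average by Klrk1, summed to 65.1 and 73.8 CPM in CTR, 87.5 and 21.1 in OAT-1746, 268 and 163 in anti-PD-1, and 72.2, 134 and 143 in COMB, and 0 passed in COMB against OAT-1746 (median 0.90, and 0.24 without OAT-1746 replicate 2). The 6 proliferation markers, led on average by Top2a, summed to 95.6 and 90.5 in CTR, 44.6 and 16.0 in OAT-1746, 40.6 and 74.2 in anti-PD-1, and 56.7, 63.0 and 65.2 in COMB, and Bub1b (1.14 ± 0.31) and Aurkb (1.27 ± 0.37) rose in COMB against OAT-1746. Of 8 neutrophil markers, which summed to 306 to 651, Csf3r fell by a log2 fold change of -0.74 ± 0.17, S100a9 and S100a8 were at 0.16 and 0.31, and the median was -0.19 and turned to 0.35 without OAT-1746 replicate 2. Astrocyte markers summed to 61.0 to 199, with Aldh1l1 rising by 0.98 and Gfap falling by a log2 fold change of -1.18. Of 4 neuron markers Snap25 and Rbfox3 fell (-2.42 and -2.10), at mean levels of 2.05 and 0.766 CPM. Dendritic cell markers summed to 62.6 to 124, oligodendrocyte markers to 155 to 292 and endothelial markers to 86.1 to 136, and in these and the T, B and erythroid lists 0 genes passed. Without OAT-1746 replicate 2, 0 genes of the marker lists and 0 mitochondrially encoded genes passed in COMB against OAT-1746, while 6 of the 7 mitochondrially encoded genes (median -1.44) and all 10 microglia markers (median -0.55) were still lower. The part of all these differences in the results for the heat shock genes was not tested.

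Genes most like a member were picked by r over all 9 libraries. Their high r comes in part from this selection, also where r is given without OAT-1746 replicate 2. The genes whose log2 CPM over the 9 libraries was most like that of 3 members were taken from all tested genes outside the 10. For Hspa1a they were Ccl4, which encodes a chemokine (Pearson r 0.984 over 9 libraries, 0.976 over 8 without OAT-1746 replicate 2), Slc45a4 (0.978 and 0.961) and Atf3 (0.969 and 0.945), and among the members Bag3 (0.910 and 0.835). For Hsp90aa1 they were Hspa5, the ER HSP70 (0.977 and 0.975), Xpo1, a nuclear export receptor (0.934 and 0.920), and Scel (0.933 and 0.919, at a mean of 0.952 CPM), and among the members Hsp90ab1 (0.903 and 0.882). For Hspd1 they were Hspa4, an HSP110 protein (0.987 and 0.974), Nvl (0.975 and 0.958) and Gtf2h1 (0.975 and 0.959), and among the members Hspa8 (0.960 and 0.919).

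Reads of some abundant members are also shared with pseudogenes. Of the 100-base stretches of Hspa8 28.5% occurred in another gene, most in Gm15459, and of Hsp90aa1 38.0%, most in Gm12346. For Hspd1 it was 23.9%, most in Hspd1-ps3, and for Hspe1 10.98%, while for Hsp90ab1, Hsph1, Dnajb1 and Bag3 it was 0%. With stretches of 50 bases the shares were 39.4% for Hspa8, 47.5% for Hsp90aa1, 42.1% for Hspd1 and 22.8% for Hspe1. They were 3.44% for Hsp90ab1 and 0.412% for Dnajb1, and stayed at 0% for Hsph1 and Bag3.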

How the data were processed

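The authors used Trimmomatic 0.36 for trimming and STAR 2.6.1b for alignment to mm10, marked duplicates with Picard 2.17.1, counted reads with a mapping quality of at least 10 with HTSeq 0.11.1 and deposited the gene counts, which were used here as deposited. All 9 columns had a sample, and 0 columns were without one. Genes were matched by identifier to GENCODE M21. Protein-coding genes were filtered with filterByExpr at a minimum count of 10, scaled by TMM and fitted with edgeR 4.0.16 in R 4.3.3 as 4 group means over 9 libraries; quasi-likelihood p-values were adjusted by the Benjamini-Hochberg method over all 12538 tested genes, with a threshold of 0.05. Correlations used log2 CPM with a prior count of 2. Alternatives were DESeq2 1.42.0, its size factors, library size alone, no filter on low counts, genes of every type beside the protein-coding ones, limma voom with quality weights (limma 3.58.1), a replicate block, a fit of only the groups compared, and leaving out each library in turn. A library left alone in its group was assumed to vary like those of the other groups. Summing Hspa1a with Hspa1b and counting list genes without OAT-1746 replicate 2 were added after seeing the data. The members and lists were chosen with earlier results of these data known. Named genes were all members, the 3 genes of highest mean level in a list, the genes called in the contrast described and the 3 genes most like Hspa1a, Hsp90aa1 and Hspd1; the called ribosomal protein genes are given as a count, and Egr1, Atf3, Dnajb4 and Hsf1 were chosen for values by library after their values were seen. The lists were heat shock factors, other HSF1-inducible genes, co-chaperones, J-domain proteins, CCT and prefoldin, mitochondrial chaperones and proteases, ER chaperones, immediate early genes, mitochondrially encoded genes, ribosomal proteins and markers of 14 cell types or states. The procedure was tested on simulated data of 12377 genes, with 200 changed by a log2 fold change of 2 up or down in OAT-1746. In OAT-1746 against CTR edgeR recovered 190 of the 200 and made 21 false calls. DESeq2 recovered 196 with 42 false calls, and limma voom 183 with 20.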

Additional observations from a re-analysis of the deposited data

Results flagged for a closer look

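In Dnajb1, OAT-1746 libraries were all above CTR libraries, while among mice given the antibody the COMB libraries were all below the anti-PD-1 libraries, with log2 fold changes of 1.34 and -0.48, neither of which passed (adjusted p = 0.061 and 0.734 by edgeR's quasi-likelihood test with Benjamini-Hochberg adjustment). The log2 difference between those values, the interaction, was -1.82 (edgeR's quasi-likelihood test with Benjamini-Hochberg adjustment, adjusted p = 0.0753), which did not pass. In Bag3 OAT-1746 libraries were likewise all above CTR and COMB libraries all below anti-PD-1, with 0.67 and -0.57, neither of which passed, an interaction of -1.24 and the same adjusted p of 0.0753 from edgeR's quasi-likelihood test with Benjamini-Hochberg adjustment.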

How the results depend on the processing

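The 60 log2 fold changes of the members were recomputed under each alternative, 1010 values in all: 919 kept their direction and their side of the threshold, 48 kept their direction on the other side of it, and 43 had the other direction, of which 0 were called in either fit. For values that turned or crossed the threshold the cause was not tested, except that leaving out a library or fitting only the groups compared leaves fewer samples.

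In OAT-1746 against CTR DESeq2 called 4 members and 1972 genes and the fit with no low-count filter 1 and 587, and leaving out each library gave 0 to 6 members and 0 to 3617 genes, the highest of both without OAT-1746 replicate 1. In anti-PD-1 against CTR DESeq2 called 14 genes. In COMB against CTR DESeq2 called 35 genes, no filter 2, voom 2 and only the groups compared 5. In COMB against anti-PD-1 DESeq2 called 47 genes, no filter 2, voom 35, and only the groups compared 2 genes, both members; leaving out each library gave 0 to 1 members and 0 to 52 genes. In COMB against OAT-1746 DESeq2 called 3062 genes, only the groups compared 0 members and 30 genes, and leaving out each library gave 0 to 5 members and 5 to 4033 genes. For the interaction DESeq2 called 3 members and 1053 genes, library size alone 24 genes, no filter 2 members and 146 genes, all genes 18 genes, and voom 3 members and 428 genes; leaving out each library gave 0 to 5 members and 0 to 2734 genes. For any difference among the groups DESeq2 called 4 members and 2137 genes, no filter 3 and 361, voom 1 and 396, and leaving out each library 0 to 5 members and 0 to 2381 genes.

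With a replicate block, COMB against OAT-1746 had 0 called members and 2 called genes, the interaction 0 genes and the test of any difference 0 genes, and Hsp90ab1 in COMB against OAT-1746 turned to -0.0357. Replicate numbers of different groups share only a number, and the 12 pairs of libraries with the same number had residual correlations of -0.349 to 0.0999. The 18 pairs with different numbers had -0.207 to 0.349. In a group of 2 libraries the residuals mirror each other, so these pairs are not separate checks.

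Other settings also turned directions. In anti-PD-1 against CTR Hsp90ab1 was 0.000903 with library size alone, and Hspd1 was -0.00061 with DESeq2, -0.000518 with its size factors, -0.0241 with all genes, -0.00357 with voom and -0.0151 with only the groups compared. In COMB against CTR voom gave 0.79 for Hspa1b and 0.054 for Dnajb1. Hsp90ab1 in the interaction was -3.24e-06 with library size alone, a scaling that moved the median of all genes in the interaction to -0.109.

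Leaving out each library turned these. In OAT-1746 against CTR Hspa1b ranged from -0.40 to 6.65. In anti-PD-1 against CTR Hspa8 ranged from -0.20 to 0.38, Hsp90aa1 from -0.25 to 0.72, Hsp90ab1 from -0.74 to 0.46, Hsph1 from -0.10 to 1.25 and Hspd1 from -0.42 to 0.34. In COMB against CTR Hspa1b ranged from -1.95 to 3.05, Hspa8 from -0.40 to 0.15, Hsp90aa1 from -0.38 to 0.017, Dnajb1 from -0.23 to 0.22 and Hspd1 from -0.52 to 0.12. In COMB against anti-PD-1 Hspa8 ranged from -0.50 to 0.0424, Hsp90aa1 from -0.92 to 0.0436, Hsp90ab1 from -0.86 to 0.34, Hspd1 from -0.58 to 0.18 and Hspe1 from -0.26 to 0.38. In COMB against OAT-1746 Hsp90aa1 ranged from -0.11 to 0.26, Hsp90ab1 from -0.24 to 0.42 and Hsph1 from -0.14 to 0.33, and in the interaction Hsp90aa1 from -0.66 to 0.31, Hsp90ab1 from -0.41 to 0.79 and Hsph1 from -1.17 to 0.18.

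With 2 libraries in 3 of the groups, the spread of a group is known poorly, and a library such as OAT-1746 replicate 2 or, for Hspa1b, CTR replicate 2 with 11 counts, sets much of a fold change. Reads shared by Hspa1a and Hspa1b limit what can be said of either alone. The RNA levels say nothing of protein.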
